A study of Mus musculus with 6 samples.

Results

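The cytosolic chaperonin CCT, also called TRiC, is a barrel of stacked rings, and each ring holds 1 copy of each of 8 related subunits. It takes up unfolded actin, tubulin and other proteins, often handed over by prefoldin, and closes its chamber over them in cycles of ATP binding and hydrolysis. Because every subunit has a fixed place in the ring, the complex needs its subunits in equal numbers. The genes described here are these 8 subunits, Tcp1, Cct2, Cct3, Cct4, Cct5, Cct6a, Cct7 and Cct8. They were taken as the rows whose gene name is, or whose joined name contains, one of these symbols. This gave 8 of 23698 genes, and 0 rows with a joined name held a subunit. All 8 were among the 9862 genes that passed the filters on low values.

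The libraries come from cultured mouse squamous cell carcinoma cells (SCCc), keratinocytes of the genotype HrasG12V; Tgfbr2 KO, which carry oncogenic Hras and lack the TGFβ receptor II. They derive from newborn back skin and were used at passages 10 to 15. In this series there was 1 ribosome profiling library and there were 2 RNA-seq libraries. The fragments sequenced in ribosome profiling are the stretches of mRNA protected by ribosomes (footprints). The wild-type and long-read libraries were not analysed here, so all values describe SCCc and none compares SCCc with normal keratinocytes.

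The sum of the exon counts was 3549555 for ribosome profiling, and RNA-seq replicates 1 and 2 had 10707930 and 14003713. The 8 subunits held 0.611%, 0.490% and 0.462% of them. Levels are given as RPKM, the count scaled to the counted length in kilobases and to the library's exon counts, over the CDS for footprints and over exons for RNA-seq. Intervals of RPKM are exact 95% Poisson intervals. Those of shares, of the footprint standard deviation and of the steps between neighbouring subunits are 95% normal approximations from the counts. All cover counting error only, since reads copied by PCR do not count separate molecules. The single ribosome profiling library used here has no replicate spread, and with 1 condition no test between groups was possible. The paper lists further SCCc ribosome profiling libraries from an earlier study, which were not used here.

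The cells carried the keratinocyte markers. All 6 keratinocyte genes (Krt5, Krt14, Krt15, Trp63, Itga6 and Col17a1) exceeded 1 RPKM in both RNA-seq libraries, and their summed level was 14534 and 16700 RPKM in replicates 1 and 2, with Krt5 the most abundant. The 6 fibroblast genes summed to 9.75 and 15.1 RPKM, led by Col3a1 in replicate 1, and the 5 melanocyte genes to 5.46 and 5.52 RPKM, most of it Pmel. Of the 3 immune genes, Cd68 made up nearly all of the 35.2 and 37.5 RPKM, and Cd3e had 0 counts. The 2 endothelial genes summed to 0.160 and 0.270 RPKM. The part of these other cell types in the values below was not tested. The modified genes were both expressed. Hras had 64.0 RPKM of footprints and 48.5 and 50.9 RPKM in RNA-seq, and Tgfbr2 had 30.7 RPKM of footprints and 61.4 and 59.0 RPKM in RNA-seq. Counts per gene show neither a base change nor the loss of single exons.

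The 8 subunits were unequal in RNA-seq and nearly equal in footprints. From the lowest to the highest subunit, the RNA-seq level differed 4.64-fold in replicate 1 and 4.26-fold in replicate 2, whereas the footprint density differed 1.49-fold. The standard deviation over the 8 subunits was 0.78 on the log2 scale for the mean RNA-seq level and 0.18 for footprints, with a counting interval of 0.16 to 0.20 for the latter. As a coefficient of variation, this is 51.6% in RNA-seq and 12.0% in footprints.

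**Figure D1:**
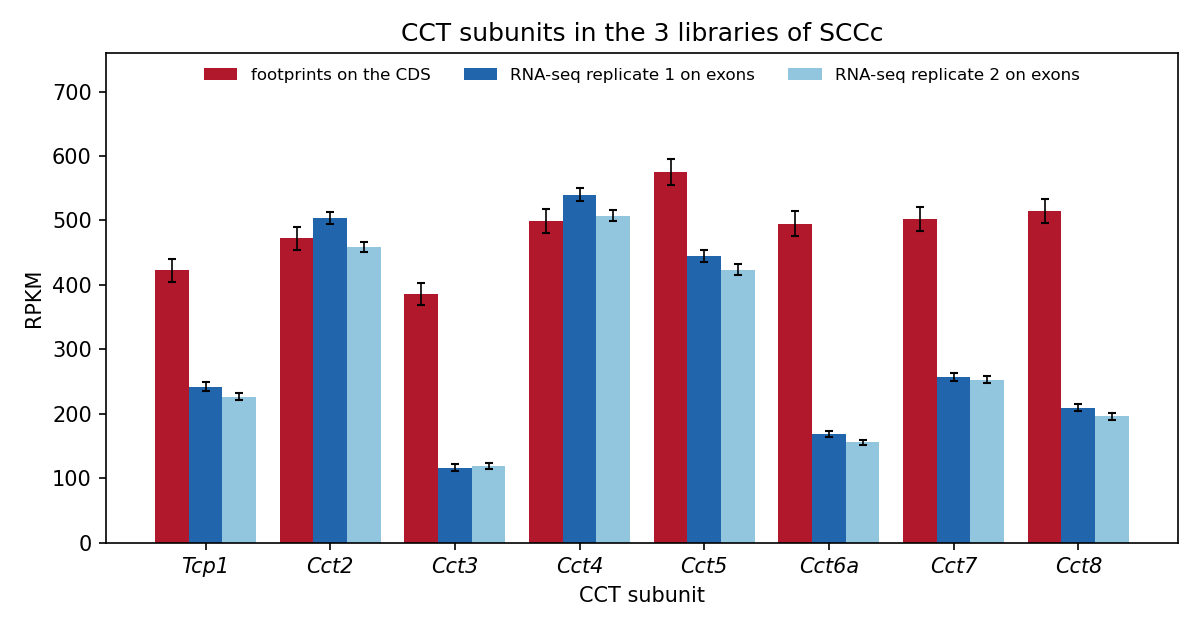
RPKM (linear axis from 0) of the 8 subunits, with 1 bar each for footprints on the CDS, RNA-seq replicate 1 and RNA-seq replicate 2 on exons, and 95% Poisson intervals as error bars. The red footprint bars lie between 386 and 575 RPKM, whereas the blue RNA-seq bars run from 117 to 540.3 RPKM.

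Cct4, Cct2 and Cct5 were the subunits with the most RNA. Cct4 had 540.3 and 507 RPKM in RNA-seq replicates 1 and 2 and 499 RPKM of footprints. Cct2 had 503 and 458 RPKM in RNA-seq and 472 RPKM of footprints. Cct5, a subunit that can build rings of itself alone when produced in bacteria, had 444 and 424 RPKM in RNA-seq and 575 RPKM of footprints (556 to 595), the highest footprint density of the 8.

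Cct3, Cct6a and Cct8 had the least RNA over exons. Cct3 had 117 and 119 RPKM in RNA-seq and 386 RPKM of footprints (369 to 403), the lowest of the 8 in all 3 libraries. Cct6a had 168 and 155 RPKM in RNA-seq and 495 RPKM of footprints. Cct8 had 209 and 196 RPKM in RNA-seq and 514 RPKM of footprints. Footprints of Cct6a and Cct8 thus lay close to those of Cct2 and Cct4, although their RNA-seq levels were far lower.

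Tcp1, the subunit that gave the complex its name, and Cct7 were intermediate in RNA-seq. Tcp1 had 242 and 227 RPKM in RNA-seq and 422 RPKM of footprints. Cct7 had 257 and 253 RPKM in RNA-seq and 502 RPKM of footprints.

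Ordered by RNA-seq level over exons, the subunits were Cct3, Cct6a, Cct8, Tcp1, Cct7, Cct5, Cct2 and Cct4 from low to high. All 7 neighbouring pairs kept this order in both replicates, and the widest step over exons, from Cct7 to Cct5, was 1.70-fold. On the CDS alone this step was narrower, with 380 and 373 RPKM in RNA-seq for Cct7 and 473 and 448 RPKM for Cct5. It was then no longer the widest, as Cct3 had 128 and 131 RPKM and Cct6a 200 and 184 RPKM. Ordered by footprints, they were Cct3, Tcp1, Cct2, Cct6a, Cct4, Cct7, Cct8 and Cct5. Here 3 of the 7 neighbouring pairs differed beyond counting error, Cct3 from Tcp1, Tcp1 from Cct2, and Cct8 from Cct5. The neighbours from Cct2 up to Cct8 could not be separated at this depth, with steps of 1.01-fold to 1.05-fold. RNA-seq replicate 2 was lower than replicate 1 in 7 of the 8 subunits, with a median log2 ratio of -0.09 against -0.01 over all genes. The largest gap between replicates, a log2 ratio of -0.14 in Cct2, was close in size to the steps from Tcp1 to Cct7 (0.12), from Cct2 to Cct4 (0.12) and from Cct5 to Cct2 (0.15).

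If the 8 subunits were equal, each would hold 12.5% of their summed RPKM. In footprints the shares ran from 9.98% for Cct3 (9.56% to 10.4%) to 14.9% for Cct5 (14.4% to 15.3%). In the mean of the RNA-seq libraries they ran from 4.89% ± 0.28 (SD, n = 2) for Cct3 to 21.7% ± 0.05 for Cct4. The footprint share was nearer to the equal share than the RNA-seq share in 8 of 8 subunits. For Cct2 the share was 20.3% and 19.6% in RNA-seq replicates 1 and 2 and 12.2% in footprints, and for Cct6a it was 6.72% ± 0.10 in RNA-seq and 12.8% in footprints. Of the remaining subunits, Tcp1 changed least, with 9.73% in RNA-seq and 10.9% in footprints.

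**Figure D2:**
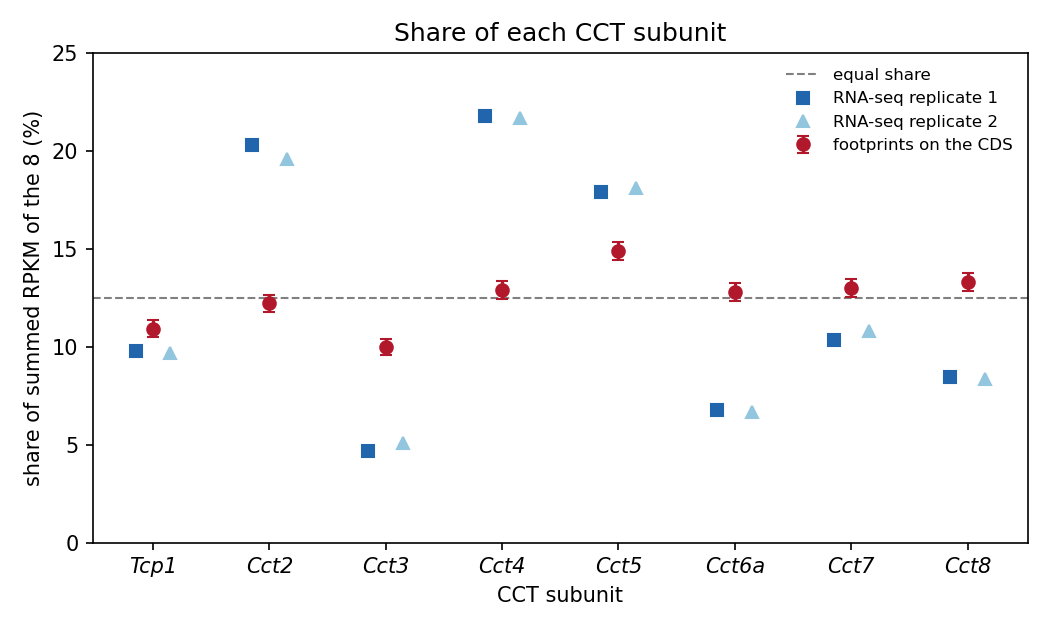
Share (%) of each subunit in the summed RPKM of the 8, for footprints (circles, with 95% counting intervals) and for each RNA-seq replicate (squares and triangles), with the equal share of 12.5% as a dashed line. The circles lie between 9.98% and 14.9%, and the RNA-seq points lie farther from the line for every subunit.

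Translational efficiency (TE) divides the footprint density of a gene by its mean RNA-seq level, here on the log2 scale and relative to the median of the 9862 genes. Its median over the 8 subunits was 0.57, and 6 subunits lay above the median of all genes and 2 below. The 474 genes with an RNA-seq level in the range of the 8 subunits had nearly the same median, 0.52. The standard deviation of TE over the subunits was 0.70, against 1.28 over these 474 genes and 1.45 over all genes. Highest was Cct3 (1.37 ± 0.03, SD over the RNA-seq replicates, n = 2), followed by Cct6a (1.27 ± 0.07) and Cct8 (1.00 ± 0.06). These 3 of 8 exceeded 1, as did 20.7% of all genes. Cct8 lies at this limit, with 0.96 against RNA-seq replicate 1 alone, and fell below it to 0.80 with RNA-seq over the CDS. None, 0 of 8, fell below -1, as did 21.1% of all genes.

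Cct7 (0.64 ± 0.01), Tcp1 (0.51 ± 0.06) and Cct5 (0.06 ± 0.04) came next. With RNA-seq over the CDS, Cct7 fell to 0.37, below Tcp1 at 0.54. Tcp1 also lay above Cct7 with footprints over exons and without division by length. Cct2 (-0.37 ± 0.08) and Cct4 (-0.41 ± 0.05) were the subunits below the median of all genes. The counting error of each value was 0.03 to 0.04. This position turned under 2 alternatives, with 0.20 for Cct2 and 0.21 for Cct4 when footprints were taken over exons, and 0.35 and 0.36 without division by length. With the TMM factors of edgeR the median of all genes moved to 0.91, and with the size factors of DESeq2 to 0.97, which shifts all genes alike, and Cct2 and Cct4 remained below it. With at least 100 counts required in every library, the median of the subunits fell to 0.18, 0 of 8 exceeded 1, against 18.8% of the 4829 genes that met this filter, and Cct5 lay below 0.

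Across the 8 subunits, Pearson's r between log2 RNA-seq level and log2 footprint density was 0.56 and Spearman's rho 0.36. Over all genes r was 0.79, and over the 474 genes with RNA-seq levels in the subunits' range r was 0.43. Between log2 RNA-seq level and log2 TE it was -0.98 over the subunits and 0.10 over all genes, and this pair shares the RNA-seq counts. These are correlations across genes within the same libraries, and genes are not independent replicates. Over the 474 genes with RNA-seq levels in the subunits' range, the standard deviation of log2 footprint density was 1.42, and that of the log2 RNA-seq level was 0.56.

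**Figure D3:**
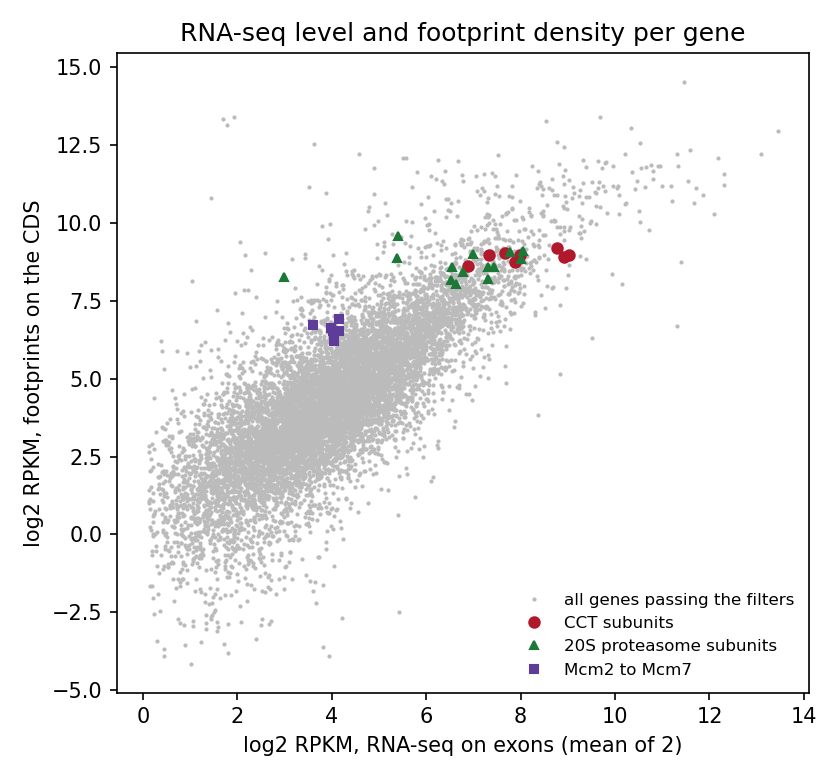
Log2 RPKM of footprints on the CDS against log2 mean RPKM of RNA-seq on exons, with 1 point per gene for the 9862 genes (grey), the CCT subunits, the 20S proteasome subunits and Mcm2 to Mcm7. The 8 CCT subunits spread along the RNA-seq axis (SD 0.78) more than along the footprint axis (SD 0.18).

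Other complexes with 1 copy of each subunit in a ring or unit were set beside CCT. The 14 subunits of the 20S proteasome, the core protease of the cell, had standard deviations of 1.34 in RNA-seq and 0.43 in footprints. Their RNA-seq level ranged 33.5-fold and their footprints 2.88-fold, and the lowest RNA-seq level was that of Psma5, with 8.88 and 7.01 RPKM. Psma5 had only 54.1 and 55.8 RNA-seq counts, and the next lowest, Psma3, had 41.0 and 42.2 RPKM. The proteasome's RNA-seq range thus depends on Psma5. The counted CDS was short in Psma5 (252 nt), in Psma3 (314 nt) and in Psmb3 (210 nt). Psmb3 had 41.2 and 43.4 RPKM in RNA-seq and the highest footprint density of the proteasome genes, 754 RPKM. The values of these genes rest on short stretches, and the proteasome's spreads without them were not computed. The 6 subunits of the replicative helicase, Mcm2 to Mcm7, had standard deviations of 0.21 in RNA-seq and 0.24 in footprints. The 6 prefoldin subunits had 0.84 in RNA-seq and 0.76 in footprints. A smaller spread in footprints than in RNA-seq was thus seen in CCT, the proteasome and, by a small margin, prefoldin. In the helicase the spreads were close, and their order depended on the replicate, with 0.24 in RNA-seq replicate 1 and 0.18 in replicate 2.

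**Figure D4:**
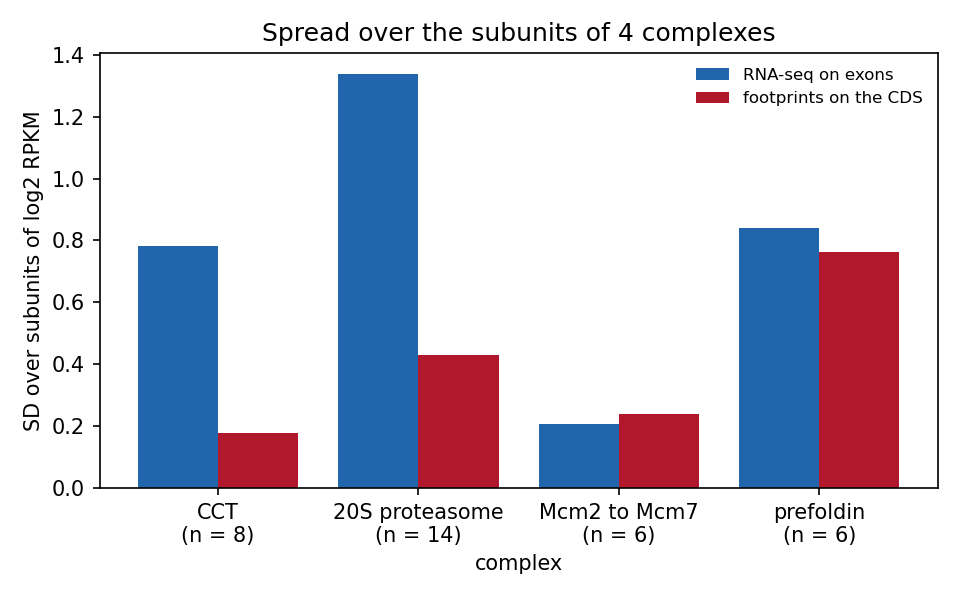
Standard deviation over subunits of log2 RPKM in RNA-seq on exons (blue, mean of the replicates) and in footprints on the CDS (red) for 4 complexes, on an axis from 0. The gap between the bars is 0.78 against 0.18 for CCT and 1.34 against 0.43 for the 20S proteasome.

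Genes that work with CCT differed in TE. All 6 prefoldin subunits, which deliver substrates, lay above the median of all genes, from 0.53 in Pfdn5 to 3.07 in Pfdn4, with a median of 1.22. Pfdn6 is listed in the files under its synonym H2-Ke2. Of the 4 phosducin-like cofactors, which assist folding by CCT, 3 passed the filters and all 3 lay above, from 0.76 in Pdcl to 2.66 in Txndc9, and Pdcl2 had 0 counts. Of the 5 tubulin cofactors, which act on tubulin after CCT, 3 lay above and 2 below, with Tbca highest (1.79) and Tbce lowest (-1.31). The counted CDS of Tbca was 188 nt, and Tbce had 47 footprints, so both values are less certain.

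Footprint densities of the main substrates ranged from 71.1 RPKM in Tubg1 to 10606 RPKM in Actb. Tuba4a (284 RPKM), Tubb2a (84.4 RPKM), Tubb2b (88.4 RPKM) and Tubg1 lay below all CCT subunits, and Tubb6 (509 RPKM) lay among them. All 12 actin and tubulin genes lay above the median of all genes in TE, with a median of 2.37, Tuba1c highest (5.36) and Tubg1 lowest (0.19). Actb had 768 and 867 RPKM in RNA-seq. Only 97 nt of the Tuba1c CDS were counted, so its value rests on a short stretch. Sequence that the actin and tubulin genes share with each other or with other genes was not searched, so its part in their values is not known. Of 10 other substrates, such as the cell cycle regulators Cdc20 and Plk1, 9 lay above and 1 below, with Plk1 highest (1.72) and Hdac3 lowest (-0.14). Hspd1 and Hspe1, the chaperonin of mitochondria and its lid, had values of 1.97 and 1.68. The counted CDS of Hspe1 was also short, 107 nt.

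The 5 genes nearest to the mean of the 8 subunits over the log2 RPKM of the 3 libraries were Slc38a2, Ralb, Psmb1, 2010107E04Rik and Atp5k. Their Euclidean distances ran from 0.07 to 0.15. Slc38a2, an amino acid transporter, had 497 RPKM of footprints and 281 and 257 RPKM in RNA-seq.

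Footprints of the subunits lay on the CDS. It held 97.8% of the footprints counted on the 5′UTR, CDS and 3′UTR of the 8 genes, against 93.2% for all genes passing the filters. In RNA-seq the CDS held 94.2% and 93.5% of the counts of the 8 genes, against 68.8% and 70.3% for all genes, so their RNA-seq counts also lay more on the CDS. In 0 of 8 subunits was the footprint density on the 5′UTR above that on the CDS, against 10.4% of 3898 genes whose counted 5′UTR reached 60 nt and whose CDS had 100 or more footprints. The ratio of 5′UTR to CDS density in footprints was highest in Cct5 (0.328) and lowest in Cct7 (0.0623), whose counted 5′UTR is 617 nt long. Because RNA-seq was measured over exons, a counted UTR with little RNA lowers the level. The 3′UTR of Cct8, 666 nt, had 14.2 and 13.3 RPKM in RNA-seq against 297 and 275 RPKM on its CDS. Taken on the CDS alone, RNA-seq levels still ranged 4.59-fold, with Cct3 lowest and Cct4 highest. Tcp1, with 292 and 270.1 RPKM on the CDS, then lay below Cct8 in both replicates, the reverse of their order over exons.

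The genes lie on 8 chromosomes of GRCm38 in GENCODE M21, as in Cct3 at chr3:88297116-88321767 on the plus strand and Cct4 at chr11:22990519-23003780 on the plus strand. The counts left out part of some CDS. Of the annotated CDS, 80.9% was counted in Cct3, 91.6% in Cct2 and 100% in Cct5, with a median of 99.2% over the passing genes that have one. Cct6a has no CDS in this annotation. Of the stretches of 30 bases in the Cct3 CDS, 17.1% also occur in transcripts of other genes, most of them in the pseudogene Cct3-ps1. For the Cct6a transcript it was 17.4%, all in Psph, and for Tcp1 13.9%, most in Acat3, with both strands searched. Psph and Acat3 overlap these subunits on the opposite strand, and whether the counting used the strand is not given in the sources used here. For Cct7 it was 12.3%, in 5 other genes, for Cct4 5.79% and for Cct2 0.254%. For Cct5 and Cct8 it was 0. The values of Cct3, Cct6a, Tcp1, Cct7 and, to a lesser degree, Cct4 are therefore less certain, and the part of shared sequence in them was not tested. GC content of the CDS was 49.0% in Cct3 and 44.8% in Cct4, the subunits with the least and the most RNA, and 52.9% in the median gene.

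The bases around the start codon are shown for the subunits with the highest and the lowest TE among those with an annotated CDS, from GENCODE M21 transcripts on GRCm38. Each line gives 10 bases of 5′UTR, the start codon in capitals and 1 base of CDS. The start codons lie in coding exons at chr3:88297236-88297238 (plus strand), chr16:87495786-87495788 (minus strand), chr10:117063706-117063708 (minus strand) and chr11:22990754-22990756 (plus strand).
Cct3: tcgtgccgccATGa
Cct8: cggccgagccATGg
Cct2: cgtcggaaccATGg
Cct4: caaggtcgccATGc
The motifs ANNATGG and GNNATGG, searched on the coding strand at the start codon, were present in Cct8 and Cct2 and not in Cct3 and Cct4. Over the 7 subunits with such a sequence, 4 had one of them, against 41.0% of 20324 genes. A relation between the motif and TE was not tested. In the RefSeq promoter table (GRCm38.p6), 7 subunits had 9 annotated starts. Of these, 0 began with C followed by 4 pyrimidines, the start of a terminal oligopyrimidine (TOP) tract, as did 2.51% of 32851 starts. Cct4 is not in this table. These are annotated starts, and the starts used in SCCc were not examined here. The paper cautions against relying on annotated transcripts alone, because small shifts of the start can add or remove a TOP tract. A listed start of Cct2 and a listed start of Cct5 lie downstream of the start codon in GENCODE M21. Whether CCT mRNAs begin with a TOP tract in these cells was therefore not tested.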

How the data were processed

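The authors trimmed reads with Trim Galore, aligned them to GRCm38 with STAR 2.6.1, filtered footprints with Bowtie2 2.4.1 and counted genes with Plastid. The authors deposited estimated counts per region, without normalization, and an RPKM value beside each. The deposited RPKM values use a library total larger than the sum of the exon counts, so RPKM was computed again from counts, counted length and the sum of exon counts.

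Genes were kept whose RPKM exceeded 1 in each RNA-seq library, whose base mean over CDS footprints and exon RNA-seq counts exceeded 25, and whose CDS was counted and had footprints. Counts were rounded for the factors of DESeq2 1.42.0 and edgeR 4.0.16, used in alternatives, and for the base mean. No pseudocount was used. Calculations ran in Python 3.11.15 and were tested on simulated data. A first criterion, a fixed margin around the known answer, was narrowly missed, with all misses in genes of few footprints, and was then replaced by the deviation relative to counting error, which was met. Alternatives covered regions, length, pseudocount, filters, scaling, each RNA-seq replicate and the subunits used. Named genes were all 8 subunits, their paralogs Cct6b and Cct8l1, the highest and lowest of each list, the nearest genes and the modified genes. Examples beyond these were chosen after their values were seen. The members and lists were chosen with earlier results of these data known.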

Additional observations from a re-analysis of the deposited data

How the results depend on the processing

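The spread over subunits stayed larger in RNA-seq than in footprints under every alternative run. The RNA-seq standard deviation was 0.76 over the CDS, and the 7 alternatives gave 0.67 to 0.79. The footprint standard deviation was 0.25 over exons and 0.24 without division by length, and its 5 alternatives gave 0.13 to 0.25. Without Cct3, an alternative chosen after seeing the data, the values were 0.67 and 0.13, and TE had a median of 0.51 and a standard deviation of 0.65.

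The median TE of 0.57 stayed above 0. It was 0.45 with RNA-seq over the CDS, 0.94 with footprints over exons, 1.06 without division by length, 0.51 for subunits with at least 80% of the CDS counted (without Cct6a), 0.18 with at least 100 counts, 1.48 with TMM factors and 1.55 with DESeq2 size factors. The standard deviation of TE was 0.66, 0.62, 0.62 and 0.67 under the first 4 of these. Apart from the scalings and filters, whose construction moves the median of all genes, the cause was not tested. Relative to the median of all genes under the same setting, Cct2 and Cct4 lay below in 9 of 11 alternatives and above in 2, footprints over exons and no division by length. Cct5 lay below in 1, at least 100 counts, and the others above in all 11.

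No paired analysis was possible because the results come from no test between groups. With 1 ribosome profiling library, differences between subunits in footprints carry counting error only. The 2 RNA-seq replicates are not stated to come from separate cultures, so their spread can be technical.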

Other observations

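The paralogs examined, Cct6b and Cct8l1, were at or near the floor of detection. Cct6b, a testis paralog of Cct6a, had 2 footprints and 4.03 and 3 RNA-seq counts, with RNA-seq levels of 0.201 and 0.114 RPKM. Cct8l1 had 0 counts in all 3 libraries, with an upper 95% bound of 0.616 RPKM of footprints.

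The RNA-seq replicates differed more on the 5′UTR of some subunits than on their CDS. On the Cct4 5′UTR, 175 counts in replicate 1 stood against 436 in replicate 2, whereas its CDS had 10200 and 12313. On the Cct8 5′UTR there were 30.1 and 104 counts and on the CDS 5227 and 6326, and on the Cct6a 5′UTR 13.3 and 54 counts and on the CDS 3139 and 3777. Over all genes passing the filters, the 5′UTR held 3.52% of the counts on the 3 regions in replicate 1 and 4.08% in replicate 2. The 5′UTR held 1.66% and 3.36% of the Cct4 counts.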
